A study of Mus musculus with 6 samples.

Results

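The mitochondrial ribosomal protein genes were followed in RNA sequencing of mouse small-intestinal organoids, cultured epithelial mini-guts with crypt-like and villus-like regions. Members were the rows of the deposited count table whose symbol begins with Mrpl or Mrps followed by a number, and 78 of the 24594 rows met this, 49 with a large-subunit symbol (Mrpl) and 29 with a small-subunit symbol (Mrps). Organoids grown from single cells for 96 h were given 5 uM NIBR-LTSi or an equal amount of its solvent DMSO for 24 h, with 3 libraries per group. The compound NIBR-LTSi inhibits the LATS kinases, which hold back YAP in the Hippo pathway. The labels name no strain, genotype, age or sex for the donor mice, and leave unsaid whether replicates came from separate cultures. The p-values therefore speak for these 6 libraries, whose spread may be technical.

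Mitochondria carry their own ribosome, which translates the few messages of the mitochondrial genome into core subunits of the respiratory chain. All of its proteins are encoded in the nucleus, made in the cytosol and imported. Some have counterparts in bacteria and others are found only in mitochondria. In the intestinal epithelium, respiration supports both dividing crypt cells and absorptive enterocytes. Symbols do not always give the place of a protein: in published structures the products of Mrps18a and Mrps30 lie in the large subunit, and Mrps36 is now known as a part of the 2-oxoglutarate dehydrogenase complex. Groups below follow the symbols.

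Every member passed the filter on low counts, so all 78 were tested. Counts of single members per library ran from 192 (Mrps33, DMSO replicate 2) to 4052 (Mrpl12, NIBR-LTSi replicate 3), in libraries of 18395427 to 26767043 counts. Among markers of the culture, the 7 epithelial genes summed to 6405 to 6485 CPM (counts relative to library size, scaled by TMM factors) with DMSO and 6903 to 7372 CPM with NIBR-LTSi. In that list Krt8 (2187 to 2207 and 2878 to 3202 CPM) and Krt18 rose, Vil1 fell (1327 to 1373 and 1018 to 1041 CPM), and 4 of the 7 had negative log2 fold changes. The 6 fibroblast markers summed to at most 0.189 CPM in any library, with Dcn and Lum at 0 counts throughout. The immune list summed to 2.78 to 3.84 CPM with DMSO and 2.73 to 4.90 CPM with NIBR-LTSi, almost all of it Cd68 and Csf1r, and Cd3e was at 0. The endothelial list (0.601 to 0.614 and 0.219 to 0.491 CPM, with Cdh5 and Kdr at 0) and the glial and neuronal list (0.425 to 0.50 and 0.516 to 0.736 CPM, with Sox10 at 0) were as low. Levels in bulk RNA do not tell fewer cells of a type from less RNA per cell.

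With NIBR-LTSi the members stayed close to their DMSO levels. Of the 78, 12 rose, 4 fell and 62 were not called at an adjusted p of 0.05 (edgeR quasi-likelihood test, Benjamini-Hochberg over all 12592 tested genes), so 20.5% were called. Over all tested genes 42% were called, 22.8% as higher and 19.2% as lower. Log2 fold changes (log2 FC) of the members ran from -0.20 for Mrpl43 to 0.40 for Mrps27, with a median of 0.04 against 0.02 over all tested genes. No member reached an absolute log2 fold change of 0.5, a size that 17% of tested genes exceeded. Within the members' own range of mean expression (11.9 to 155 CPM) 46.4% of 7049 tested genes were called and 9.73% exceeded 0.5. In that range the median standard error (SE) of a log2 fold change was 0.06, as it was for the members.

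The counts of calls depended on the scaling and on single libraries. The main split was 12 higher and 4 lower. It was 10 and 7 with DESeq2 size factors, 16 and 2 with library totals only, and 12 and 7 when genes had to reach 1 CPM in 3 libraries. DESeq2 called 6 higher and 2 lower, all among the 16. Leaving out DMSO replicate 1 gave 6 and 5, and leaving out DMSO replicate 2 gave 13 and 1. Leaving out NIBR-LTSi replicate 2 gave 5 and 2, and leaving out NIBR-LTSi replicate 3 gave 10 and 0.

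**Figure D1:**
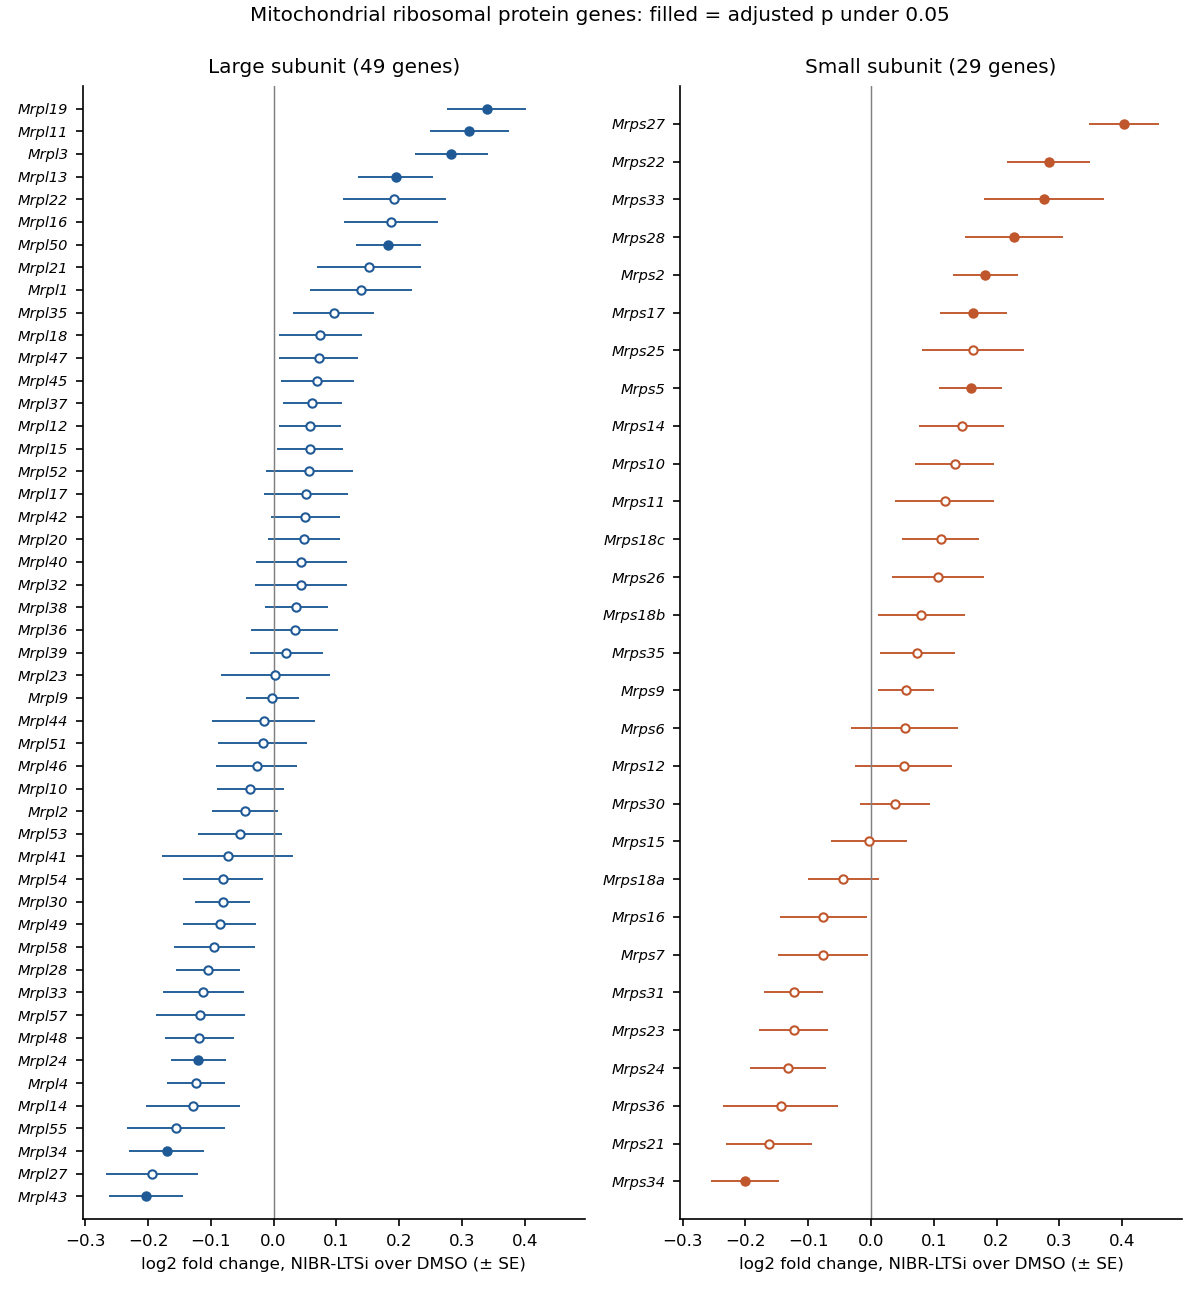
Log2 fold change of each of the 78 members (NIBR-LTSi over DMSO, x axis) with its SE as a bar, split by the subunit in the symbol. Filled points have an adjusted p under 0.05: 12 lie to the right of 0 and 4 to the left, and the values run from -0.20 to 0.40.

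The member with the largest rise was Mrps27 (Entrez 218506; GRCm38, chromosome 13, 99344767 to 99415562), a pentatricopeptide repeat protein of the small subunit. It was at 32.9, 33.5 and 34.2 CPM in DMSO replicates 1 to 3 and at 46.6, 44.2 and 42.4 CPM in NIBR-LTSi replicates 1 to 3. Every NIBR-LTSi library was above every DMSO library. The log2 fold change was 0.40 ± 0.06 (SE; adjusted p = 1.15e-04), or 1.32-fold, with a 95% interval from 0.28 to 0.53. Exons of Mrps27 share 417 bases with 6430562O15Rik on the opposite strand, a gene with 10 counts in total.

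4 further members kept their rise under all 15 alternative settings, as Mrps27 did. Mrpl19 (chromosome 6, 81957826 to 81965949), a counterpart of a bacterial protein at the interface of the subunits, was at 22.5, 23.9 and 23.3 CPM with DMSO and 30.1, 30.5 and 27.6 CPM with NIBR-LTSi. Its log2 fold change was 0.34 ± 0.06 (adjusted p = 0.00107). The groups did not overlap, but 1962 bases of its exons are shared with Gcfc2 on the opposite strand, which was at 3.72 ± 0.43 and 4.66 ± 0.08 CPM (SD, n = 3), and the strand setting of the counting is not given in the sources used here. Mrpl11 (chromosome 19, 4962152 to 4966995), which sits at the base of the stalk where translation factors dock, was at 24.3, 22.1 and 22.0 CPM with DMSO and 28.0, 29.0 and 27.9 CPM with NIBR-LTSi. Its log2 fold change was 0.31 ± 0.06 (adjusted p = 0.00185), with no overlap between the groups.

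Mrpl3 (chromosome 9, 105053268 to 105077466), a core protein near the catalytic centre that is mutated in a human mitochondrial cardiomyopathy, was at 40.1, 41.7 and 37.8 CPM with DMSO and 51.4, 47.5 and 46.8 CPM with NIBR-LTSi. All NIBR-LTSi libraries were the higher ones (log2 FC 0.28 ± 0.06, adjusted p = 0.00203). Mrps22 (chromosome 9, 98588730 to 98601679), a mitochondria-specific protein also mutated in human disease, was at 26.2, 28.4 and 24.8 CPM with DMSO and 33.9, 31.7 and 31.1 CPM with NIBR-LTSi. Here too the groups were separate (log2 FC 0.28 ± 0.07, adjusted p = 0.00467). For these 5 genes the highest adjusted p under any alternative was 0.0247, for Mrps22.

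The other 7 rises were smaller or less stable. Mrps33, a small mitochondria-specific protein with the lowest CPM of the members, was at 10.3, 10.7 and 11.3 CPM with DMSO and 14.6, 12.8 and 11.8 CPM with NIBR-LTSi. The groups were apart by less than 1 CPM between DMSO replicate 3 and NIBR-LTSi replicate 3. Its call (log2 FC 0.28 ± 0.10, adjusted p = 0.0366) was lost without DMSO replicate 1 (0.129), DMSO replicate 2 (0.0802), NIBR-LTSi replicate 1 (0.144) or NIBR-LTSi replicate 2 (0.0937). It was also lost with DESeq2 size factors (0.0510), in DESeq2 (0.137) and with the replicate block (0.0577).

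Mrps28, Mrpl13, Mrpl50, Mrps2, Mrps17 and Mrps5 also rose, with log2 fold changes from 0.16 (Mrps5) to 0.23 (Mrps28) and adjusted p from 0.0137 (Mrpl50) to 0.0348 (Mrps28). Of these, Mrpl13, Mrps2, Mrps5 and Mrps17 are among those with counterparts in the bacterial ribosome. Each of these calls was lost when 1 of 2 or more single libraries was left out. Without DMSO replicate 1 the adjusted p was 0.160 for Mrps28, 0.0919 for Mrpl13, 0.0786 for Mrpl50, 0.0568 for Mrps17 and 0.0910 for Mrps5. Without NIBR-LTSi replicate 2 all 6 calls were lost, with adjusted p from 0.0614 (Mrpl13) to 0.146 (Mrps28). Calls were also lost without DMSO replicate 3 (Mrps28 0.0643, Mrpl13 0.0609, Mrps17 0.0799), NIBR-LTSi replicate 1 (Mrps28 0.0651, Mrpl13 0.0682, Mrps5 0.0915) and NIBR-LTSi replicate 3 (Mrps28 0.0508, Mrps2 0.0592, Mrps17 0.146). Exons of Mrpl13 share 330 bases with Mtbp on the opposite strand, a gene that rose from 9.04 ± 0.34 to 15.95 ± 0.73 CPM (SD, n = 3; log2 FC 0.82, adjusted p = 7.37e-06). The part of Mtbp reads in the Mrpl13 value was not tested.

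4 members fell. Mrpl43 (chromosome 19, 45005014 to 45006442), a mitochondria-specific protein, was at 56.4, 62.4 and 54.2 CPM with DMSO and 52.1, 49.5 and 48.6 CPM with NIBR-LTSi. All NIBR-LTSi libraries were below the DMSO libraries, the log2 fold change was -0.20 ± 0.06 and the adjusted p 0.0155. The call was lost without DMSO replicate 2 (0.0546), NIBR-LTSi replicate 2 (0.0528) or NIBR-LTSi replicate 3 (0.0540). Mrpl43 shares 385 exonic bases with Twnk, the mitochondrial DNA helicase gene on the opposite strand, which was at 23.5 ± 0.5 and 25.5 ± 1.6 CPM (SD, n = 3; log2 FC 0.12, adjusted p = 0.177).

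Mrps34 (chromosome 17, 24895120 to 24896289), needed for a stable small subunit and mutated in human Leigh syndrome, was at 52.1, 53.8 and 51.1 CPM with DMSO and 48.5, 44.7 and 43.5 CPM with NIBR-LTSi. The groups did not overlap (log2 FC -0.20 ± 0.05, adjusted p = 0.0110; 0.0514 without NIBR-LTSi replicate 3). Mrpl34 (chromosome 8, 71464926 to 71465753), with a bacterial counterpart, was at 43.7, 47.9 and 45.1 CPM with DMSO and 41.8, 41.8 and 37.9 CPM with NIBR-LTSi. Its groups were separate as well, by less than the range within either group, and its log2 fold change was -0.17 ± 0.06 (adjusted p = 0.0372). It is the shortest member, with a deposited width of 607 bases, and after adjustment for gene width its log2 fold change was -0.05 (adjusted p = 0.457). The Mrpl34 call was also lost without DMSO replicate 2 (0.118), DMSO replicate 3 (0.0548), NIBR-LTSi replicate 2 (0.0522) or NIBR-LTSi replicate 3 (0.136), with library totals only (0.103) and in DESeq2 (0.0554).

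Mrpl24 (chromosome 3, 87918131 to 87923450), another protein with a bacterial counterpart, was at 82.6, 81.7 and 79.9 CPM with DMSO and 72.3, 75.9 and 76.3 CPM with NIBR-LTSi. The NIBR-LTSi libraries were all lower, by a log2 fold change of -0.12 ± 0.04 (adjusted p = 0.0441). Of 15 alternatives 4 kept this call. The value was -0.07 with library totals only (adjusted p = 0.210) and with the width adjustment (0.207), and the adjusted p was 0.143 or 0.0735 with DMSO replicate 1 or 2 left out. With NIBR-LTSi replicate 1, 2 or 3 left out it was 0.116, 0.0669 or 0.0565. Exons of Mrpl24 share 594 bases with Rrnad1 on the opposite strand (11.98 ± 1.89 and 10.5 ± 2.2 CPM, SD, n = 3).

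**Figure D2:**
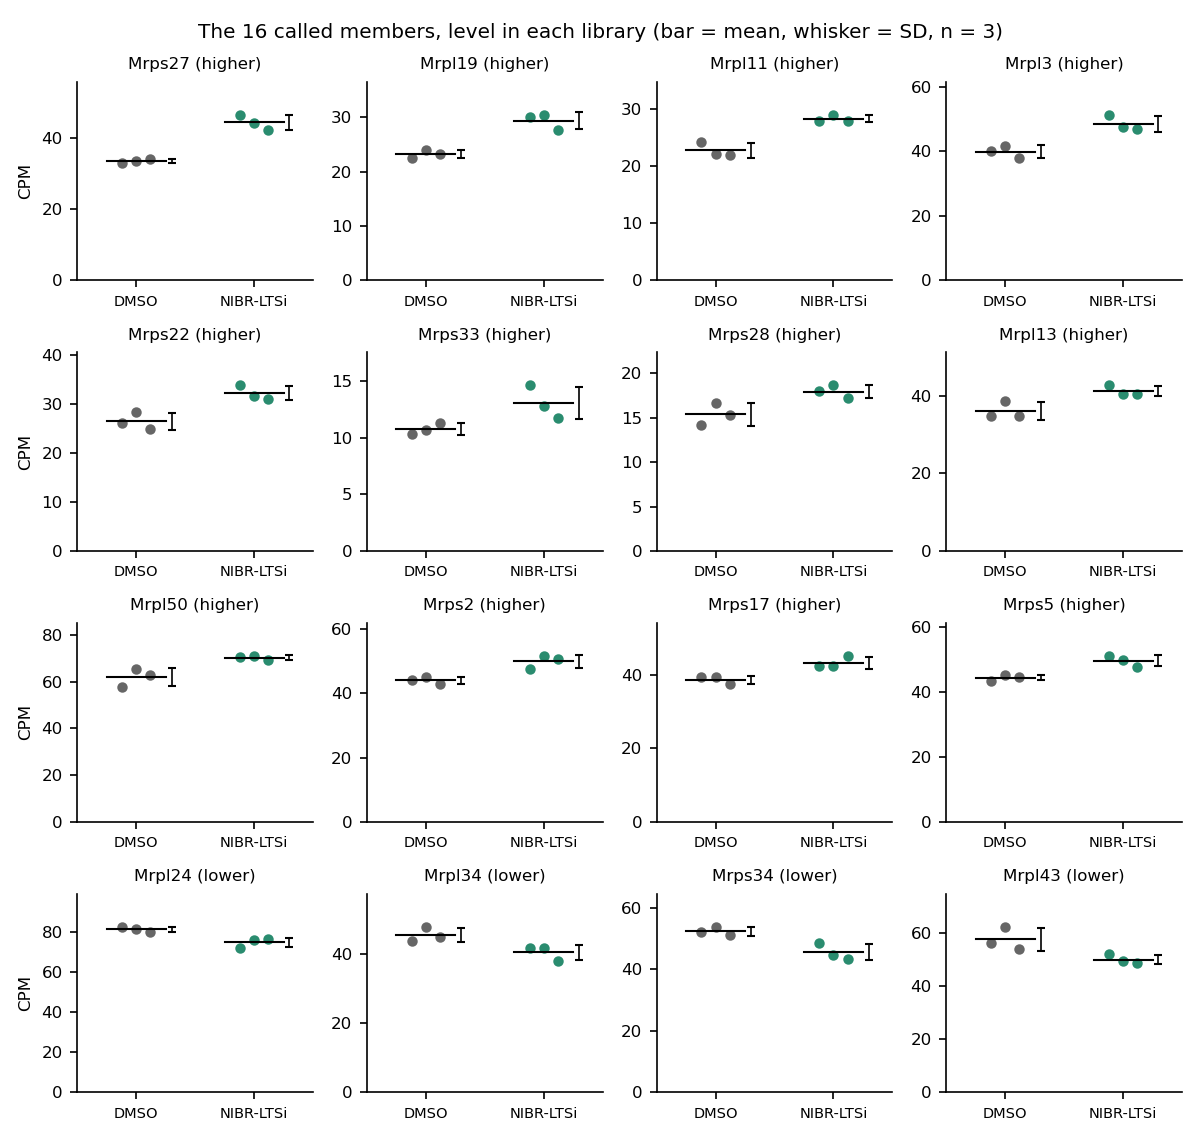
TMM-scaled CPM (y axis, from 0) of the 16 called members in each of the 3 DMSO and 3 NIBR-LTSi libraries, with the mean as a bar and the SD as a whisker. In each of the 12 rises and 4 falls the groups of libraries are separate, and the largest separation is that of Mrps27.

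In 26 of the 78 members the groups of libraries did not overlap, against 52.5% of all tested genes, 16 with every NIBR-LTSi library above and 10 with every NIBR-LTSi library below. Over all tested genes 28% were separate upward and 24.5% downward. Besides the 16 called members, Mrpl16, Mrps14, Mrps10 and Mrps9 were separate upward, with adjusted p from 0.0657 to 0.353. Mrpl30, Mrpl28, Mrpl48, Mrpl4, Mrps31 and Mrps23 were separate downward, with adjusted p from 0.0504 (Mrpl4) to 0.161 (Mrpl30). These 10 were named after their values were seen.

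Of the 62 members that were not called, 33 had a positive and 29 a negative log2 fold change, between -0.19 and 0.19. Their 95% intervals all lay between -0.35 and 0.37. These intervals hold for single genes and are not adjusted for the number of genes tested. Most span no change, but some do not, among them Mrpl22 (0.01 to 0.37) and Mrpl27 (-0.35 to -0.03). In the large subunit the 41 uncalled genes were Mrpl1, Mrpl2, Mrpl4, Mrpl9, Mrpl10, Mrpl12, Mrpl14, Mrpl15, Mrpl16, Mrpl17, Mrpl18, Mrpl20, Mrpl21, Mrpl22, Mrpl23, Mrpl27, Mrpl28, Mrpl30, Mrpl32, Mrpl33, Mrpl35, Mrpl36, Mrpl37, Mrpl38, Mrpl39, Mrpl40, Mrpl41, Mrpl42, Mrpl44, Mrpl45, Mrpl46, Mrpl47, Mrpl48, Mrpl49, Mrpl51, Mrpl52, Mrpl53, Mrpl54, Mrpl55, Mrpl57 and Mrpl58. In the small subunit the 21 were Mrps6, Mrps7, Mrps9, Mrps10, Mrps11, Mrps12, Mrps14, Mrps15, Mrps16, Mrps18a, Mrps18b, Mrps18c, Mrps21, Mrps23, Mrps24, Mrps25, Mrps26, Mrps30, Mrps31, Mrps35 and Mrps36. Of the 62, 47 were called under none of the 15 alternatives.

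The stalk recruits translation factors, and besides Mrpl11 at its base, which rose, 2 of its genes were followed by role and neither was called. Mrpl12, its flexible repeat protein, was at 146, 157 and 153 CPM with DMSO and 166, 161 and 148 CPM with NIBR-LTSi, and the groups overlapped (log2 FC 0.06 ± 0.05, adjusted p = 0.373, 95% interval -0.05 to 0.17). Mrpl10, the anchor of the stalk, was at 62.5 ± 4.0 and 60.9 ± 1.2 CPM (SD, n = 3; adjusted p = 0.614, interval -0.15 to 0.08). In the decoding centre of the small subunit, Mrps12 was at 21.2 ± 1.4 and 22.0 ± 1.7 CPM (adjusted p = 0.626, interval -0.12 to 0.22). Mrpl58, a hydrolase in the large subunit that frees peptides from stalled tRNA, was at 27.7 ± 1.4 and 25.9 ± 1.3 CPM (adjusted p = 0.267, interval -0.24 to 0.05). Mrpl44, whose fold is related to a ribonuclease and which is mutated in human cardiomyopathy, was at 22.6 ± 2.1 and 22.4 ± 1.6 CPM (adjusted p = 0.901, interval -0.20 to 0.16).

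Exons of 26 members overlap those of another gene, 22 of them on the opposite strand, where the value can depend on the strand setting. Among the genes followed by role, Mrpl10 shares 240 bases in this way, Mrpl12 200, Mrps18b 638 and Mrpl58 2, while Mrps18c shares 174 bases with a gene on its own strand.

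Mrps18a, Mrps18b and Mrps18c encode paralogs of 1 bacterial protein, and none of the 3 was called. Per kilobase of deposited gene width, Mrps18c was the highest at 24.8 ± 0.5 CPM per kilobase with DMSO and 26.8 ± 1.5 with NIBR-LTSi. Mrps18b followed at 13.4 ± 0.6 and 14.2 ± 1.1, and Mrps18a at 8.47 ± 0.27 and 8.24 ± 0.25 (SD, n = 3 each). Their order was the same in both groups, with gaps wider than the SDs. The log2 fold changes were 0.11 ± 0.06 for Mrps18c (adjusted p = 0.170; 0.0227 after the width adjustment), 0.08 ± 0.07 for Mrps18b and -0.04 ± 0.06 for Mrps18a (adjusted p = 0.387 and 0.570).

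Members differed far more in level from each other than between the groups. Mean levels over the 6 libraries ran from 3.02 CPM per kilobase for Mrps25 to 101 for Mrpl12, a 33.5-fold range, with a median of 19.5 for the large and 12.2 for the small subunit. The highest after Mrpl12 were Mrpl34 (75.1 ± 3.5 with DMSO, 66.7 ± 3.7 with NIBR-LTSi), Mrpl52 (56.8 ± 5.1 and 59.1 ± 3.3) and Mrpl54 (53.9 ± 3.7 and 51.1 ± 2.8). Mrpl52 and Mrpl54 were within their SDs of each other with DMSO and further apart with NIBR-LTSi. The lowest were Mrps25 (2.85 ± 0.28 and 3.19 ± 0.17), Mrps10 (3.38 ± 0.18 and 3.69 ± 0.15), Mrpl17 (4.72 ± 0.43 and 4.87 ± 0.04) and Mrpl19 (4.26 ± 0.14 and 5.39 ± 0.29). These low values rest on deposited widths of 5450 to 8079 bases, and for Mrps25 on exons that share 3533 bases with Nr2c2 on the opposite strand.

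Among the members, genes of greater deposited width had higher log2 fold changes (Spearman rho 0.41 across 78 genes, against 0.15 across all tested genes), and genes of higher level per kilobase had lower ones (rho -0.50). Both are descriptions across genes of the same 6 libraries, which are not independent, and width enters both measures. The 12 that rose had a median width of 3610 bases and the 4 that fell 1541 bases. The adjustment for width removes a trend on width across the tested genes by construction, so the rho of 0.06 with width after it is no separate result. After it 14 members were higher and 4 lower, and 11 of the 16 calls were shared with the unadjusted fit. The 5 lost were Mrpl13, Mrps17, Mrps5, Mrpl24 and Mrpl34, and Mrps27 was at 0.44 (adjusted p = 1.43e-05).

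**Figure D3:**
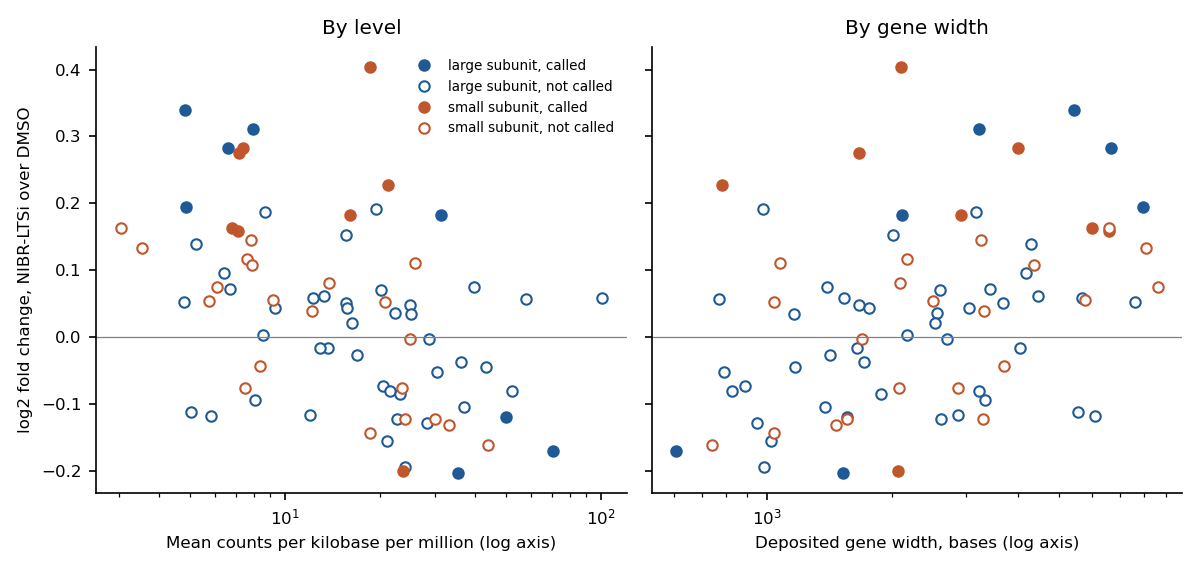
Log2 fold change of each member against its mean level in CPM per kilobase (left, log axis) and against its deposited gene width in bases (right, log axis), coloured by subunit, with filled points for an adjusted p under 0.05. Most rises lie at levels below the median of 16.2, and 2 of the 4 falls (Mrpl24 and Mrpl34) at 50.04 or more.

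Summed over all members, the level was 3044, 3220 and 2992 CPM in DMSO replicates 1 to 3 and 3209, 3148 and 3026 CPM in NIBR-LTSi replicates 1 to 3. The groups overlapped, with means of 3085 ± 119 and 3127 ± 93 CPM (SD, n = 3), a ratio of 1.01. As a share of all counts this was 0.295% to 0.315% with DMSO and 0.309% to 0.322% with NIBR-LTSi. The large-subunit genes summed to 2086 ± 85 and 2101 ± 68 CPM and the small-subunit genes to 1000 ± 35 and 1027 ± 25 CPM. The ratio of large to small was 2.07 to 2.10 with DMSO and 2.03 to 2.07 with NIBR-LTSi. On that ratio the 2 groups were separate, by less than the range within either group.

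Of the 49 large-subunit genes 5 rose and 3 fell, with a median log2 FC of 0.02. Of the 29 small-subunit genes 7 rose and 1 fell, with a median of 0.07. These are 16.3% and 27.6% called, against 42% of all tested genes. The large-subunit median was below 0 without DMSO replicate 3 or NIBR-LTSi replicate 1. Without NIBR-LTSi replicate 2 the counts of rises were 3 and 2, and without DMSO replicate 1 they were 3 and 3. No large-subunit gene was lower without DMSO replicate 2, NIBR-LTSi replicate 2 or NIBR-LTSi replicate 3. The small subunit had 4 rises without NIBR-LTSi replicate 1 or 3, no fall without NIBR-LTSi replicate 3, and 2 falls when any of DMSO replicate 1, DMSO replicate 3, NIBR-LTSi replicate 1 and NIBR-LTSi replicate 2 was left out.

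Within each group the members moved together between replicates. Of the 78, 54 had their highest DMSO value in replicate 2 and 51 their lowest in replicate 3, against 37.9% and 36.1% of all tested genes. With NIBR-LTSi, 48 were highest in replicate 1 and 62 lowest in replicate 3, against 38.1% and 31.7% of all tested genes. The median deviation of a member from its own mean log2 CPM was 0.06 in DMSO replicate 2 and -0.07 in DMSO replicate 3. It was 0.04 in NIBR-LTSi replicate 1 and -0.04 in NIBR-LTSi replicate 3. On this measure the group means were -0.01 ± 0.06 with DMSO and 0.01 ± 0.05 with NIBR-LTSi (SD, n = 3). The spread between replicates was thus wider than the shift between the groups.

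**Figure D4:**
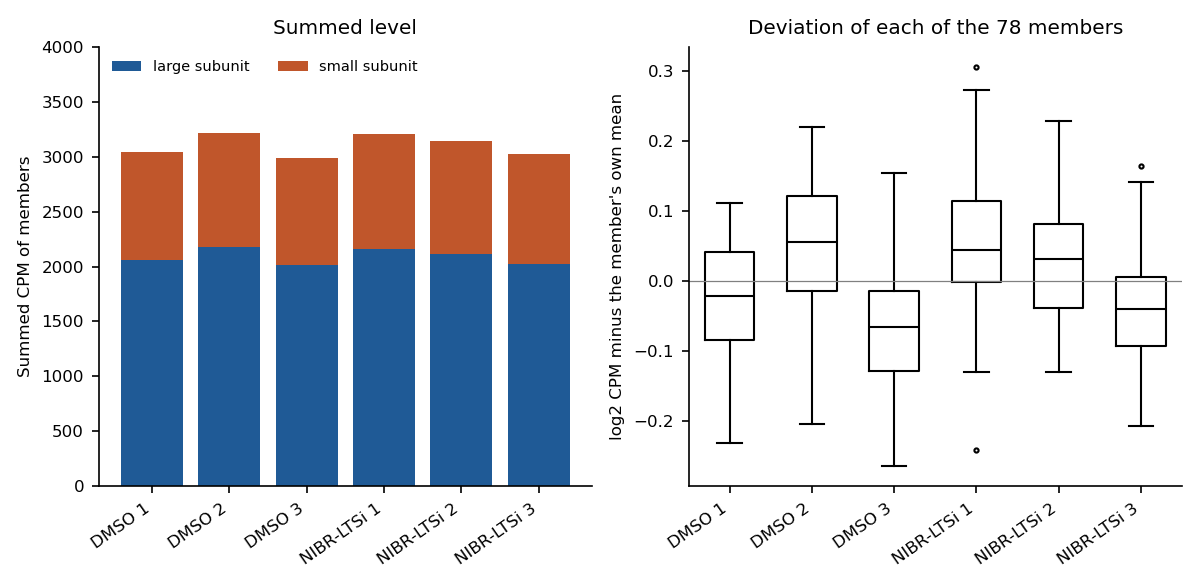
Left, summed TMM-scaled CPM of the large-subunit and small-subunit genes in each library (bars from 0), which totals 2992 to 3220 CPM. Right, deviation of each of the 78 members from its own mean log2 CPM in each library (box: quartiles and median, whiskers to 1.5 times the box, points beyond), with DMSO replicate 2 and NIBR-LTSi replicate 1 highest and DMSO replicate 3 lowest by the median.

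Promoters are shown for the 5 called members with a match to the ETS motif below and for Mrpl11, which has none, to set their upstream sequence beside the calls. Of the 12 called members with a promoter window, 7 hold no such match, Mrpl11, Mrps33 and Mrpl24 among them. RefSeq promoter windows (GRCm38.p6) were found for 69 members, and not for Mrps35, Mrpl15, Mrpl19, Mrpl38, Mrpl54, Mrpl4, Mrps28, Mrpl13 and Mrps34. The 250 bases upstream of the start were searched on both strands for 5 motifs. A match describes these letters and is not a binding site. The motif CCGGAAG, bound by ETS factors such as GABP, a known regulator of nuclear genes for mitochondrial proteins, was found in 18 of 69 members (26.1%) and in 15.8% of 10052 tested genes. It was in 3 of 9 members that rose, 2 of 3 that fell and 13 of 57 that were not called. The consensus of NRF1, another regulator of such genes, was found in 10 members (14.5%, against 9.44%). The consensus of YY1 was found in 1 member (1.45%, against 0.816%), the TEAD motif GGAATG, bound by the partners of YAP, in 7 (10.1%, against 12.9%) and the E-box CACGTG, which MYC can bind, in 5 (7.25%, against 10.0%). All matches to NRF1, YY1 and the E-box were among the uncalled, which make up 57 of the 69 members with a window. The TEAD motif was in 2 of 9 members that rose, 0 of 3 that fell and 5 of 57 that were not called. In the sequences below (5′ to 3′ on the gene's strand, ending at the base before the start that the RefSeq window uses, which for Mrps27 and Mrpl11 lies inside the gene interval given above), capitals mark CCGGAAG or its reverse complement.
Mrps27, rose, chr13:99344536-99344785, plus strand: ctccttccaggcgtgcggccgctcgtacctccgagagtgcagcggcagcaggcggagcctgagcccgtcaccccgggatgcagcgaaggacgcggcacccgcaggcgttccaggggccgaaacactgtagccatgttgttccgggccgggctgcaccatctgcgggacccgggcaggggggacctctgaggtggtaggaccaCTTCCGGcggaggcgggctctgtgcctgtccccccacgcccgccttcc
Mrpl3, rose, chr9:105053018-105053267, plus strand: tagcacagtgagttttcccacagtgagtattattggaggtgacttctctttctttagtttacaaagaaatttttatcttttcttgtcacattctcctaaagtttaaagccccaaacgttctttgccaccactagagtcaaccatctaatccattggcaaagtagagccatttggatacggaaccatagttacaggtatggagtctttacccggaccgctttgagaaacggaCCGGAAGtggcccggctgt
Mrps22, rose, chr9:98601680-98601929, minus strand: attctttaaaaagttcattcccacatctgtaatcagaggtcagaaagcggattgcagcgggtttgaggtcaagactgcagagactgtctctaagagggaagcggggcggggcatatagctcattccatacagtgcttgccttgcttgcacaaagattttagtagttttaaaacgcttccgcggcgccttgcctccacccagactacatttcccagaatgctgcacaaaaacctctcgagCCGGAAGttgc
Mrpl11, rose, chr19:4962056-4962305, plus strand: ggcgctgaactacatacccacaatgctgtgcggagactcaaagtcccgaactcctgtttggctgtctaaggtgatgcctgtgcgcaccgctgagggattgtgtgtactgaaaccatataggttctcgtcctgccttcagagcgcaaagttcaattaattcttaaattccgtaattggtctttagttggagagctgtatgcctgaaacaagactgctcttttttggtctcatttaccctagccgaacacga
Mrpl43, fell, chr19:45006443-45006692, minus strand: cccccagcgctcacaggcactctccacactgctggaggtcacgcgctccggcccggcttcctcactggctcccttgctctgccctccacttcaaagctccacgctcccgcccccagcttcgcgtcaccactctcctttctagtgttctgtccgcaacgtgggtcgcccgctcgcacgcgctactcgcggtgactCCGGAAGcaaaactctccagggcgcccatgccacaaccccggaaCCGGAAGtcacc
Mrpl34, fell, chr8:71464676-71464925, plus strand: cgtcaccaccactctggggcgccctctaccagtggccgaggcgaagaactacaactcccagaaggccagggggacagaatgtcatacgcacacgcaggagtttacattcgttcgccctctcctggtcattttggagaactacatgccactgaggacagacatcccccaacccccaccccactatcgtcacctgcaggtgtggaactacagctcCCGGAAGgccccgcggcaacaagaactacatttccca

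The upstream sequences of Mrps27, Mrpl3 and Mrps22, which rose, each hold 1 match, at 48, 19 and 11 bases before the start counted from the first base of the match. That of Mrpl11, which also rose, holds none. Among the members that fell, Mrpl43 holds 2 matches, at 56 and 12 bases, and Mrpl34 holds 1, at 37 bases. Another feature of position is the shared promoter: 26 of the 69 members (37.7%) had the start of another gene on the opposite strand within 1000 bases upstream, against 20.2% of tested genes. 1 such pair consists of members, Mrpl46 and Mrps11, with starts 42 bases apart and log2 fold changes of -0.03 and 0.12, neither called. Of 25 tested partners, these 2 included, 9 were called (36.0%, against 42% of all tested genes). Mrps27 and its partner Ptcd2 both rose (0.40 and 0.18). For the other called members with a partner, the partner was not called: Zfp189 for Mrpl50, Zfp661 for Mrps5 and Twnk for Mrpl43. The 78 members lie on 17 chromosomes, with 11 of them on chromosome 11.

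Other proteins of the mitochondrial ribosome have symbols outside the pattern. Of 5 listed (Dap3, Ptcd3, Chchd1, Aurkaip1 and Gadd45gip1) none rose and 1 fell, with a median log2 FC of 0.05. That is 20% called, against 42% of all tested genes. Aurkaip1, a small-subunit protein, fell from 49.4 ± 1.9 to 43.6 ± 2.6 CPM (SD, n = 3; log2 FC -0.18 ± 0.06, adjusted p = 0.0239). Its call was lost without DMSO replicate 1 (0.0788), DMSO replicate 2 (0.0757), NIBR-LTSi replicate 2 (0.0746) or NIBR-LTSi replicate 3 (0.0969) and with library totals only (0.0655). Ptcd3, a pentatricopeptide repeat protein like Mrps27, was at 45.0 ± 2.9 and 48.9 ± 1.7 CPM (log2 FC 0.12 ± 0.06, adjusted p = 0.111; 0.0411 with library totals only).

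Genes that build the mitochondrial ribosome and modify its RNA had 6 of 28 tested members higher and 2 lower, with a median of 0.05. These are 28.6% called, against 42% of all tested genes, and 21.4% higher, against 22.8%. Fastkd2, an RNA-binding protein needed for the large subunit, rose from 17.8 ± 0.9 to 23.7 ± 2.2 CPM (log2 FC 0.41 ± 0.08, adjusted p = 0.00127). The GTPase gene Gtpbp10, which acts late in large-subunit assembly, rose from 13.6 ± 1.4 to 17.2 ± 0.1 CPM (log2 FC 0.34 ± 0.08, adjusted p = 0.00654). DESeq2 called 2 of these genes higher, and without DMSO replicate 1 none was lower, with 1 lower without DMSO replicate 2 or NIBR-LTSi replicate 2. Among 16 translation factors, 2 rose and 1 fell: the elongation factor genes Gfm1 (53.5 ± 1.4 to 64.4 ± 2.5 CPM, adjusted p = 0.00100) and Tsfm (21.2 ± 0.5 to 25.7 ± 2.1 CPM, adjusted p = 0.00830), and Mtfmt, which formylates the initiator tRNA (log2 FC -0.27, adjusted p = 0.0320; named after its value was seen). Of the translation factors 18.8% were called, against the same 42%. None of them was lower without DMSO replicate 1 or NIBR-LTSi replicate 1 or 2.

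Of 22 genes that charge mitochondrial tRNA, 11 rose and none fell (50% called, against 42% of all tested genes, of which 22.8% were higher), the median log2 FC being 0.14. Gars, whose product serves both the cytosol and mitochondria, rose from 127 ± 8 to 181 ± 3 CPM (log2 FC 0.52 ± 0.05, adjusted p = 4.86e-06). Mars2, the mitochondrial methionyl-tRNA synthetase, rose from 24.8 ± 1.8 to 38.5 ± 2.3 CPM (log2 FC 0.63 ± 0.07, adjusted p = 1.88e-05). Without DMSO replicate 1, 7 rose. Both examples lie above the largest log2 fold change of any ribosomal member.

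Among 10 nuclear regulators of mitochondrial genes, 4 rose and 1 fell (50% called, against 42% of all tested genes). Ppargc1a, the coactivator PGC-1alpha, rose from 13.6 ± 0.7 to 36.6 ± 1.1 CPM (log2 FC 1.44 ± 0.06, adjusted p = 1.41e-08). Esrra, a nuclear receptor that works with it, fell from 260 ± 5 to 215 ± 3 CPM (log2 FC -0.27 ± 0.04, adjusted p = 7.66e-05). Myc, Pprc1 and Nrf1 also rose (log2 FCs 0.47, 0.43 and 0.19), while Gabpa, Gabpb1, Gabpb2, Yy1 and Ppargc1b were not called; these 8 were named after their values were seen.

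2 related gene groups, subunits of the respiratory chain and cytosolic ribosomal proteins, moved differently from each other. Nuclear-encoded subunits of the respiratory chain, whose mitochondrially encoded parts this ribosome makes, had 55 of 78 tested members lower and none higher. These are 70.5% called, all lower, against 42% of all tested genes called and 19.2% lower. Lower calls were 38 to 62 when each library was left out. The median log2 FC was -0.18 and lay between -0.22 and -0.13 over the alternatives. The muscle-type subunit gene Cox7a1 fell from 43.2 ± 1.8 to 21.9 ± 2.2 CPM (log2 FC -0.98 ± 0.07, adjusted p = 7.24e-07) and the ATP synthase subunit gene Atp5g3 from 603 ± 23 to 503 ± 13 CPM (log2 FC -0.26 ± 0.04, adjusted p = 1.81e-04). Cytosolic ribosomal protein genes had 7 of 83 tested members higher and 1 lower (9.64% called), with a median of 0.05. Their count of rises was 26 with the width adjustment, 15 with library totals only and 4 without DMSO replicate 1. It was 2 without DMSO replicate 3, and 2, 0 and 13 with NIBR-LTSi replicate 1, 2 and 3 left out in turn. Falls were 3 without DMSO replicate 3, 2 if NIBR-LTSi replicate 1 was removed, and 0 with NIBR-LTSi replicate 3, or either of DMSO replicates 1 and 2, removed. Examples are Rpl3 (272 ± 9 and 306 ± 11 CPM, log2 FC 0.17 ± 0.04, adjusted p = 0.00552, or 0.0505 when NIBR-LTSi replicate 2 was left out) and Rps4l (0.32 ± 0.09, adjusted p = 0.0111; 0.0560 without DMSO replicate 1 and 0.0674 without NIBR-LTSi replicate 2), a near copy of another gene whose reads the counting could have split. The differences between these lists were not tested.

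**Figure D5:**
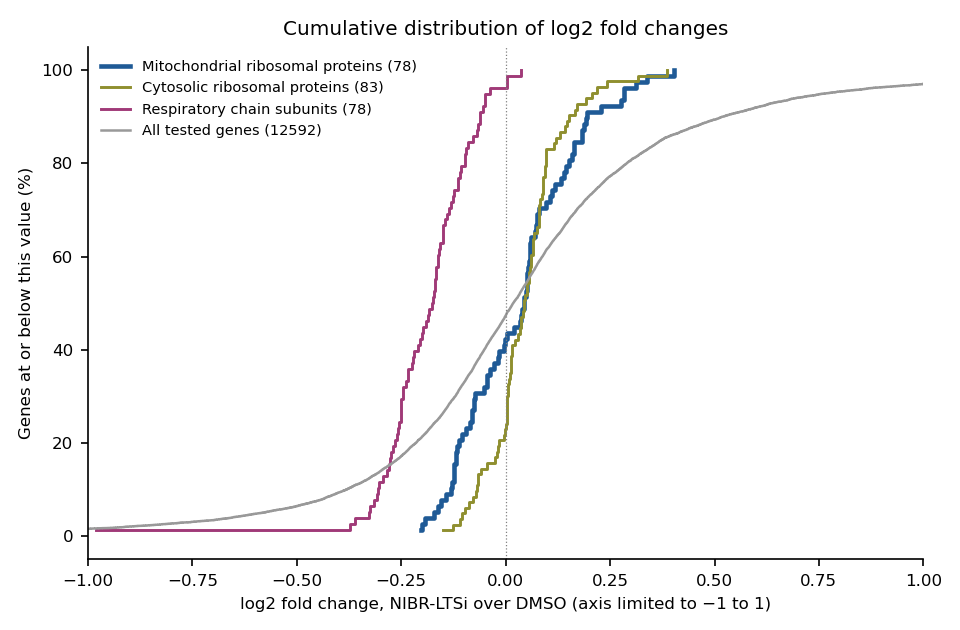
Cumulative percentage of genes (y axis) at or below each log2 fold change (x axis, limited to -1 to 1) for the 78 mitochondrial ribosomal protein genes, 83 cytosolic ribosomal protein genes, 78 respiratory chain subunits and all 12592 tested genes. Both ribosomal curves are steep and centred near 0 (medians 0.04 and 0.05), and the respiratory chain curve is centred at -0.18.

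Proliferation genes moved with the treatment beside these values. Of 20 listed, 19 rose (95%, against 22.8% of all tested genes) and none fell, with a median log2 FC of 0.72. Their summed level was 717 to 743 CPM with DMSO and 1137 to 1211 CPM with NIBR-LTSi. Ccna2, a cyclin of S phase and mitosis, rose from 59.4 ± 2.6 to 98.8 ± 1.6 CPM (adjusted p = 1.96e-07), and Cdc20, an activator of mitotic exit, from 37.4 ± 1.9 to 65.2 ± 1.7 CPM (adjusted p = 2.87e-07). The part of a change in cycling cells in the members' values was not tested.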

How the data were processed

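Gene-level read counts (whole numbers, not normalised) were deposited by the authors as 1 table for 3 DMSO and 3 NIBR-LTSi libraries, with a gene width in bases. Per the submitters' processing notes the build was mm10 and edgeR was used. Names for the aligner, the counter with its strand option, and the annotation were not given in the sources used here. Per the labels' protocols, organoids were dissociated and stranded mRNA libraries were made from 200 ng of total RNA.

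Counts were filtered with filterByExpr, which kept 12592 of 24594 rows, scaled with TMM factors and tested by the quasi-likelihood F-test of edgeR 4.0.16 in R 4.3.3. The test was two-sided, the model held group alone, and p-values were adjusted by Benjamini-Hochberg over every tested gene; each adjusted p printed comes from it unless another tool is named. Fold changes set NIBR-LTSi over DMSO. SEs were calculated back from the F statistic and are approximate, and 95% intervals use the t quantile at the test's total degrees of freedom. The common dispersion corresponds to a coefficient of variation of 6.02% between replicates. Counts of library pairs within a group differed by 4.62 to 11.9 in chi-square per degree of freedom, so no library was a copy of another.

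Levels per kilobase divide by the deposited width. Positions are 1-based from RefSeq (GRCm38.p6, the assembly of mm10), and exon overlaps are from GENCODE M21. On simulated counts for 12592 genes with 200 changed, recovery was 48.0% at a 1.25-fold change, 84.0% at 1.5-fold, 76.0% at 2-fold and 98.0% at 4-fold, with 8 false among 161 calls. With 5287 calls in the data themselves, the adjusted p works at a different cutoff, so these rates do not give the power for the members. Alternatives were limma-voom (limma 3.58.1), DESeq2 (1.42.0), its size factors, scaling by upper quartiles or by library totals only, 2 other filters, the replicate block, a width adjustment (smoothed per-library offsets on gene width) and leaving out each library. Named members were the up to 6 largest rises and falls among called members, the 4 highest and 4 lowest by level per kilobase, and 10 chosen by role; in each other list they were the 2 genes with the smallest p. The members, lists and rule were chosen with earlier results of these data known.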

Additional observations from a re-analysis of the deposited data

How the results depend on the processing

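The ribosomal members' median log2 fold change of 0.04 was 0.00 to 0.07 when each library was left out and 0.09 with library totals only. Under each of the 15 alternatives it moved by less than the SD of the member median between single libraries (0.05). That SD is a wide yardstick, since it is larger than the median fold change itself. Counts moved more. Higher calls were 6 in DESeq2 and lower calls 7 with DESeq2 size factors, 2 with library totals only, 7 with the 1 CPM filter and 2 in DESeq2. Leaving out 1 library gave 5 to 13 higher and 0 to 5 lower. By subunit, the large had 8 higher with the width adjustment and 5, 1, 5 and 1 lower under the 4 settings just named for lower calls. The small had 2 higher in DESeq2 and 2 lower with DESeq2 size factors, the 1 CPM filter, limma-voom and the width adjustment. Leave-one-out ranges were 3 to 7 higher and 0 to 3 lower (large) and 2 to 6 higher and 0 to 2 lower (small).

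In the other lists, library totals gave 1 higher and 0 lower ribosomal proteins outside the pattern, 1 lower assembly gene and 0 lower translation factors. The width adjustment gave 1 higher and 2 lower outside the pattern, and DESeq2 called 2 assembly genes and 2 genes of mitochondrial DNA and RNA higher. Cytosolic ribosomal proteins had 4, 15 and 26 higher with DESeq2 size factors, library totals and the width adjustment. Their lower calls were 3 with DESeq2 size factors or the 1 CPM filter, 2 in DESeq2 and limma-voom, and 0 with upper-quartile factors, library totals or the width adjustment. Leave-one-out ranges were 0 to 1 lower outside the pattern, 0 to 2 lower for assembly, 0 to 1 lower for translation factors, 7 to 9 higher for tRNA charging, 2 to 4 higher for mitochondrial DNA and RNA, and 0 to 13 higher and 0 to 3 lower for cytosolic ribosomal proteins.

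Among the genes named by the rule, signs turned for 7 members, none of them called: Mrpl10 (0.0081 with library totals, 0.0088 with the width adjustment, -0.064 to 0.015 when each library was left out), Mrpl44 (0.029 and 0.030 under the same settings, -0.093 to 0.038 when each library was left out), Mrpl17 (-0.020) and Mrpl54 (0.020) with the width adjustment, Mrpl52 (-0.0025 to 0.12) and Mrps12 (-0.0069 to 0.09995) when each library was left out, and Mrps18a (9.47e-04 with library totals). The cause of these changes was not tested.

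The replicate numbers share no stated origin, and same-numbered libraries had deviations correlated at 0.05, -0.30 and 0.56, so they were not treated as pairs. DMSO replicate 2 correlated best with NIBR-LTSi replicate 1 (0.53). With the replicate block 10 members were higher and 3 lower, no translation factor was lower, and 2 genes of mitochondrial DNA and RNA were higher. At this depth the 95% intervals of uncalled members lay between -0.35 and 0.37, so small changes may be missed.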

Other observations

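Genes of mitochondrial DNA maintenance, transcription and RNA processing supply the messages that the mitochondrial ribosome reads. Of 22 tested, 4 were higher and 2 lower (27.3% called, against 42% of all tested genes). Their median log2 fold change (log2 FC) was 0.03. Mterf2, a factor of the family that acts on mitochondrial transcription, fell from 26.7 ± 2.3 to 17.6 ± 1.0 CPM (SD, n = 3; log2 FC -0.60 ± 0.08, adjusted p = 7.92e-05). Polg2, the accessory subunit of the mitochondrial DNA polymerase, fell from 20.9 ± 1.1 to 15.1 ± 1.2 CPM (log2 FC -0.47 ± 0.08, adjusted p = 5.17e-04). The 4 that rose, named after their values were seen, were Elac2, Pnpt1, Supv3l1 and Ssbp1, with log2 fold changes of 0.34, 0.30, 0.17 and 0.21. Elac2 trims mitochondrial tRNA, Pnpt1 and Supv3l1 degrade mitochondrial RNA together, and Ssbp1 binds single-stranded mitochondrial DNA. Without NIBR-LTSi replicate 2 or 3, 2 members rose.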
